A study of Mus musculus with 4 samples.

Results

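The genes analysed here are 10 genes of intestinal lipid absorption, chosen by name and matched to their Ensembl identifiers among the 55487 genes of the deposited tables. They are the apolipoprotein genes Apoa1, Apoa4, Apoc3 and Apob, the lipid transfer gene Mttp, the fatty acid binding protein genes Fabp1 and Fabp2, the fatty acid receptor gene Cd36, and the triglyceride synthesis genes Mogat2 and Dgat2. They were followed in mouse small intestinal (SI) organoids, epithelial cultures grown from isolated crypts in IntestiCult medium. The organoids carried a lentivirus for a miRNA mimic control (NCLMIR002, replicates 1 and 2) or for a miR-181a-5p mimic (MLMIR0085, replicates 3 and 4), and both groups were selected in puromycin at 2 µg/ml. Each group thus had 2 libraries, the strain, age and sex of the mice were not given in the sources used here, and the labels left unsaid whether the libraries within a group were transduced separately. The p-values below therefore measure the spread between these libraries, which may be technical. RNA-seq measured mRNA but not mature miR-181a-5p.

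Enterocytes take up fatty acids and monoglycerides from the lumen, carry them through the cytosol on fatty acid binding proteins and rebuild them into triglycerides at the endoplasmic reticulum. Apolipoprotein B and the microsomal triglyceride transfer protein then load the triglycerides into chylomicrons, which also receive small apolipoproteins before they leave for the lymph. In the epithelium these genes are characteristic of mature absorptive cells on the villus, and many of them depend on the nuclear receptor HNF4.

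The miRNA and the stretches of the lipid genes that hold its seed match or a promoter motif are shown here because they are what the members share, or do not share, in sequence. Mature mouse miR-181a-5p (RefSeq, GRCm38.p6) is encoded at chr1:137966468-137966490 by Mir181a-1 and at chr2:38852741-38852763 by Mir181a-2, both on the plus strand. Capitals mark its seed, bases 2 to 8.
miR-181a-5p: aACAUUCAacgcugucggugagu
The letters TGAATGT (a match to the seed) and GAATGTA (a match to its first 6 bases followed by A) were looked for in each gene's longest 3′ UTR of the annotation. The 3′ UTRs of the 10 members were 64 to 1660 bases long, and only that of Cd36 held a match. It was GAATGTA, at base 372 of 1660, shown in capitals within a window of 30 bases on the minus strand at chr5:17782961-17782990 (GRCm38).
Cd36 3′ UTR: ggcaaatttcaaGAATGTAcattctgagaa
No member held TGAATGT, which 18.38% of 12840 tested genes with a 3′ UTR of at least 50 bases did, and 23.41% of those genes held a match of either kind. The median 3′ UTR of those genes was 1165 bases, longer than the 3′ UTR of every member other than Mttp (1201 bases) and Cd36. A match is a description of the letters and not evidence of binding.

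RefSeq promoters (GRCm38.p6, from 250 bases before to 50 bases after the gene's start) were matched for 7 of the 10 members. Both strands were searched for CAAAGNNCA, an HNF4-type motif. It was found in Apoa4, Apob and Fabp2, and in 6.36% of 32851 promoters of the same length. The windows are all written on the plus strand, at chr9:46240647-46240686 for Apoa4, chr12:7977559-7977598 for Apob and chr3:122894920-122894959 for Fabp2. Capitals mark the match, which reads as the reverse complement in Apob and Fabp2.
Apoa4 promoter: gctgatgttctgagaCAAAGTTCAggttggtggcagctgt
Apob promoter: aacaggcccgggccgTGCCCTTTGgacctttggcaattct
Fabp2 promoter: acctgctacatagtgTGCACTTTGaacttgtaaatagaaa
The first base of the match lay 182 bases before the RefSeq start of Apoa4, 103 before that of Apob and 137 before that of Fabp2. RefSeq starts can differ from the outer ends of the gene spans given below, which come from GENCODE. The GATA-type motif AGATAA (11.18% of promoters) and an HNF1-type motif (GTTAAT, any base, then ATTAA, 0.06% of promoters) were in none of the 7 windows.

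The libraries held 31104884 to 38111731 expected counts, which are RSEM's estimates of the reads from each gene. Levels per library are given below as normalized CPM, which divides counts by the library size after TMM correction, and levels are compared between genes only as TPM, which is per length. Differences are log2 fold changes of mimic over mimic control with their standard error, from the quasi-likelihood test of edgeR, with p-values adjusted over 17155 genes by the Benjamini-Hochberg method. The epithelial genes Epcam, Cdh1, Krt8, Krt18 and Krt19 summed to 3488 to 3983 CPM in every library, against 0.0843 to 0.522 CPM for 6 mesenchymal, 1.31 to 2.30 for 5 endothelial and 2.16 to 2.87 for 6 leukocyte genes. Col1a2, Col3a1, Dcn and Lum of fibroblasts and Cdh5 and Kdr of endothelium had 0 counts in all 4 libraries, while the highest of the other genes were Vwf of endothelium (28 to 67 counts) and Cd68 of macrophages (51 to 72 counts). Of 5 adipocyte genes Adipoq and Lep were at 0 in all 4 libraries, and Cidec gave nearly all of the sum of 4.69 to 14.0 CPM.

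All 10 genes were detected in every library and passed the filter on low counts. None was called at an adjusted p under 0.05, against 612 of all 17155 genes tested (3.57%), of which 392 were lower with the mimic (2.29%) and 220 higher (1.28%). With a fold change of at least 2 as well, 2.06% of all genes and again 0 of the 10 were called. At an unadjusted p under 0.05, Apoc3, Apoa1, Fabp1 and Cd36 were lower with the mimic, 4 of 10 against 13.0% of all genes. In either direction 24.8% of all genes had such a p. The other edgeR and DESeq2 tests called up to 2 members, always lower. The likelihood-ratio and exact tests of edgeR called Apoc3 and Fabp1, and DESeq2 called Apoc3 only. These tests also called more of all genes than the 612 above. The likelihood-ratio test called 1864 of 17155, the exact test 1788 of 17155 and DESeq2 1288 genes. The log2 fold change was below 0 for 8 members and above 0 for Mttp and Dgat2, with a median of -0.34 beside -0.01 over all genes. In 5 members (Apoa1, Apoc3, Apob, Fabp1 and Cd36) both mimic libraries lay below both controls, which held for 29.5% of all genes, and in no member did both lie above, which held for 28.9%. In bulk RNA, fewer enterocytes and less of an mRNA per enterocyte cannot be told apart.

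**Figure D1:**
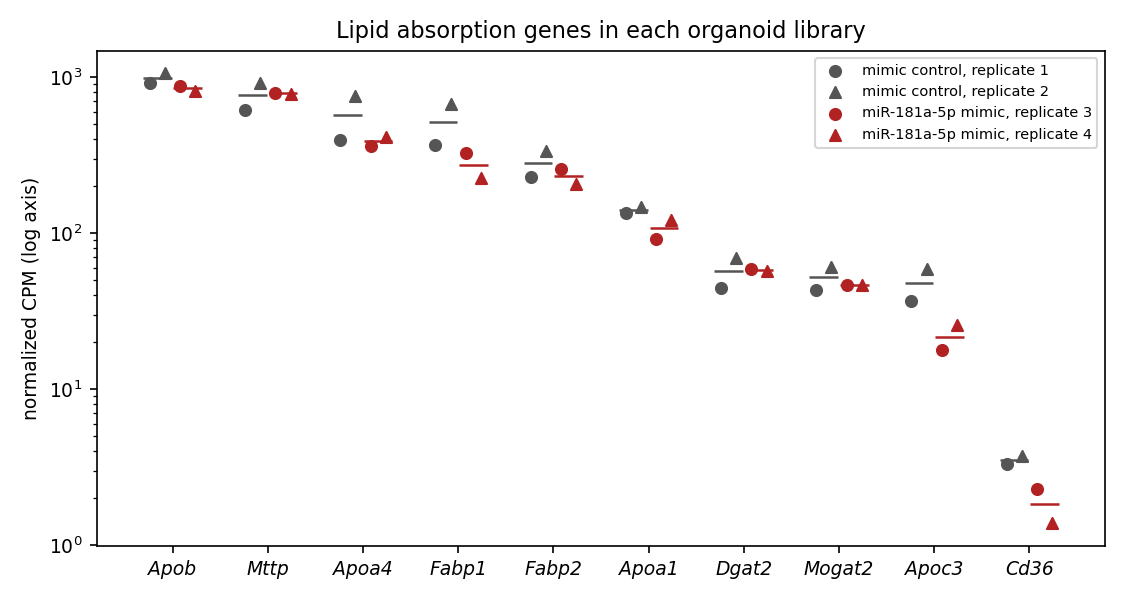
Normalized CPM (log axis) of the 10 lipid absorption genes in the mimic control libraries (grey) and the miR-181a-5p mimic libraries (red), with bars at the group means. Mimic control replicate 2 (grey triangles) is the highest library for all 10 genes, and the groups are apart for Apoa1, Apoc3, Apob, Fabp1 and Cd36.

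The members spanned a wide range of levels. Fabp1 was the most abundant, at 1349 ± 566 TPM in the controls (SD, n = 2) and 739 ± 147 TPM with the mimic. Apoa4 (397 ± 179 TPM in the controls) and Fabp2 (385 ± 104) followed, and these neighbours did not differ beyond their spread. Mttp (237 ± 65.2), Apoa1 (180 ± 10.6) and Apoc3 (137 ± 47.0) were next, and the SDs of adjacent genes in that order overlapped. Apob had 85.7 ± 9.98 TPM, Mogat2 and Dgat2 36.8 ± 9.23 and 32.9 ± 10.7 TPM, and Cd36 only 1.73 TPM in both controls. The summed TPM of the 10 genes was 2133 and 3550 in the controls and 2005 and 1915 in the mimic libraries. Mimic control replicate 2 stood above the other 3 libraries, while replicate 1 lay close to the mimic libraries.

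Apoa1, Apoc3 and Apoa4 lie within 14880 bases on chromosome 9 (46228580 to 46243459, GRCm38). Apoc3 encodes an apolipoprotein that slows triglyceride hydrolysis by lipoprotein lipase. Its normalized CPM was 36.9 and 58.6 in the controls against 17.8 and 25.7 with the mimic, so that the groups did not overlap. This was a control level 2.19 times that with the mimic and the member with the largest difference (log2 fold change -1.13 ± 0.25, adjusted p = 0.0525 by edgeR's quasi-likelihood test). Its adjusted p was 0.000487 in edgeR's likelihood-ratio test, 0.000507 in its exact test and 0.000379 in DESeq2, and over all 18 alternatives it ranged from 0.000379 to 0.357.

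Apoa1 encodes the main protein of high-density lipoprotein and is also carried on chylomicrons. Its normalized CPM was 135 and 146 in the controls against 91.5 and 122 with the mimic. The controls lay close together and the groups were apart, but the mimic libraries differed more from each other than the nearer of them did from the controls (log2 fold change -0.40 ± 0.14, adjusted p = 0.143 by the edgeR test). Apoa4 encodes an apolipoprotein made by enterocytes during fat absorption. Its normalized CPM was 394 and 754 in the controls against 363 and 415 with the mimic. The mimic libraries lay on either side of control replicate 1 and the groups overlapped (-0.56 ± 0.26, adjusted p = 0.236, edgeR). The annotated antisense gene Gm10680, which overlaps Apoa4, had 137 and 339 counts in the controls against 116 and 155 with the mimic. Both genes were highest in control replicate 2. The counts of Apoa4 were not whole numbers, and since the sources used here do not say whether strand was used in counting, reads of the pair cannot be told apart.

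The ratio of Apoc3 to Apoa1, in TPM, was 0.600 and 0.907 in the controls against 0.449 and 0.476 with the mimic. Both mimic libraries lay below both controls, and with 2 libraries per group an exact permutation test cannot give a two-sided p under 0.333. This ratio was chosen after the values were seen. Within 250 kb of the cluster 6 other genes were tested and 0 were called by the edgeR quasi-likelihood test (1 at an unadjusted p under 0.05, against 24.8% of all genes), with log2 fold changes from -0.83 for Gm10680 to 0.27 for Pafah1b2 and a median of 0.10.

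Apob, on chromosome 12 (7977648 to 8016835), encodes the structural protein of the chylomicron. Its normalized CPM was 911 and 1059 in the controls against 878 and 819 with the mimic. Both mimic libraries were below both controls, by little (-0.21 ± 0.12, adjusted p = 0.313, edgeR). Mttp, on chromosome 3 (138089854 to 138144968), encodes the subunit of the transfer protein that moves triglyceride onto apolipoprotein B. Its normalized CPM was 617 and 911 in the controls against 795 and 777 with the mimic. Both mimic libraries lay between the controls and the difference was small beside their spread (0.04 ± 0.18, adjusted p = 0.91, edgeR). Reads of Mttp may be shared with Trmt10a and the antisense gene Gm43691, which overlap it on the other strand and had 247 to 331 and 33.0 to 56.1 counts.

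Fabp1, on chromosome 6 (71199827 to 71205023), encodes the liver-type fatty acid binding protein, and Fabp2, on chromosome 3 (122895072 to 122899506), the intestinal type. Fabp1 had a normalized CPM of 367 and 668 in the controls against 325 and 224 with the mimic. The mimic libraries were below both controls, although the step from control replicate 1 to mimic replicate 3 was small beside the gap between the controls (-0.91 ± 0.28, adjusted p = 0.109, edgeR). Its adjusted p was 0.0237 in the likelihood-ratio test and 0.299 in DESeq2. Fabp2 had a normalized CPM of 230 and 334 in the controls against 257 and 205 with the mimic, and its groups overlapped (-0.29 ± 0.19, adjusted p = 0.376, edgeR). In TPM, Fabp1 was 3.04 and 3.81 times Fabp2 in the controls against 2.40 and 2.08 times with the mimic. The groups did not overlap in this ratio, which was also chosen after the values were seen. Fabp1 accounted for 44.5% and 49.3% of the summed TPM of the 10 genes in the controls against for 42.1% and 33.2% with the mimic.

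Cd36, on chromosome 5 (17781690 to 17888801), encodes a membrane receptor for long-chain fatty acids. It had 126 and 116 counts in the controls against 71 and 49 with the mimic, the fewest of the 10 genes. Its normalized CPM was 3.29 and 3.74 against 2.27 and 1.38, and the groups did not overlap (-0.96 ± 0.29, adjusted p = 0.11, edgeR). It is also the only member with a seed match in its 3′ UTR, as printed above. The endothelial list, a cell type that expresses Cd36 as well, summed to 1.31 to 2.30 CPM over its 5 genes, with 2.19 and 1.61 in the controls against 1.31 and 2.30 with the mimic.

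Mogat2 and Dgat2 are neighbours on chromosome 7 (99153658 to 99238619) and encode the acyltransferases that turn monoglyceride into diglyceride and diglyceride into triglyceride. Mogat2 had a normalized CPM of 43.3 and 60.8 in the controls against 46.3 and 46.5 with the mimic (-0.16 ± 0.16, adjusted p = 0.557, edgeR). Dgat2 had 44.7 and 69.4 in the controls against 58.5 and 56.9 with the mimic (0.02 ± 0.19, adjusted p = 0.966, edgeR). For both genes the mimic libraries were nearly equal and lay between the controls.

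The spread between the controls was large beside the difference between the groups. Mimic control replicate 2 was above replicate 1 for all 10 members, from 1.08-fold for Apoa1 to 1.91-fold for Apoa4 (median log2 ratio 0.55), and it was the highest of the 4 libraries for each of them. Over all genes tested the median log2 ratio was -0.01, and replicate 2 was above replicate 1 for 49.0%. The gap between the controls exceeded the gap between the group means in 7 of the 10 genes in CPM, and exceeded the log2 fold change in 6 on the log2 scale.

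Structural enterocyte genes differed between the controls in the same direction, and villus top genes did not. Of 10 structural genes of the enterocyte brush border and villus (Vil1, Krt20, Cdh17 and others), 10 were higher in control replicate 2 than in replicate 1, with a median log2 ratio of 0.33, and their summed CPM was 2512 and 3120 in the controls against 2878 and 3087 with the mimic. Both mimic libraries lay between the controls in that sum. Of the 10 genes, 0 were called or had an unadjusted p under 0.05 in the edgeR quasi-likelihood test, where 24.8% of all genes had such a p. Their median log2 fold change was 0.07. The summed CPM of the lipid genes was 2782 and 4063 in the controls against 2836 and 2692 with the mimic, so that mimic replicate 3 lay between the controls and replicate 4 below both. Vil1, which encodes villin, had 578 and 661 CPM in the controls against 557 and 603 with the mimic (-0.09 ± 0.11, adjusted p = 0.646, edgeR). Anpep, an aminopeptidase of the brush border, fell (1851 and 1245 against 289 and 412 CPM, -2.14 ± 0.23, adjusted p = 0.00812, edgeR). Its order between the controls was opposite to that of the lipid genes. Paneth cell genes summed to 1032 and 717 CPM in the controls against 661 and 867 with the mimic, and enteroendocrine genes to 579 and 378 against 463 and 422. Stem cell genes summed to 1588 and 1055 against 1126 and 1395. Each of these sums was lower in control replicate 2 than in replicate 1. Of 6 stem cell genes 3 were below 0 and 3 above, and only Lgr5 was called (-1.38 ± 0.26, adjusted p = 0.0369, edgeR). Of 8 proliferation genes 1 was below 0 and 7 above, and only Mcm2 was called (0.51 ± 0.10, adjusted p = 0.0369, edgeR). Of 7 villus top genes, 1 (Fos) was called lower and the other 6 were not called, with a median log2 fold change of -0.66. All 7 were below 0, and 4 were lower at an unadjusted p under 0.05 (edgeR quasi-likelihood test), against 13.0% of all genes. In 5 of the 7 both mimic libraries lay below both controls, against 29.5% of all genes. Of those 7 genes 3 were higher in control replicate 2 than in replicate 1 (median log2 ratio -0.04). The part of cell composition in the lipid gene values was not tested. The rescaling that follows is no such test, because scaling to another gene list cannot tell fewer enterocytes from less mRNA per enterocyte.

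When the libraries were scaled to the structural genes in place of all genes, the edgeR quasi-likelihood test called Apoc3 and Fabp1 and not the other 8 members. Apoc3 was at -1.17 ± 0.27 (adjusted p = 0.000989) and Fabp1 at -0.92 ± 0.24 (adjusted p = 0.00537). These fold changes were close to the -1.13 ± 0.25 and -0.91 ± 0.28 found with scaling to all genes. The lower adjusted p-values thus did not come with a clearly larger fall. The standard error was 0.270 against 0.245 for Apoc3 and 0.237 against 0.279 for Fabp1. With structural scaling the standard errors of Apoa4, Apob, Mttp, Fabp1 and Fabp2 were nearly equal, at 0.236 to 0.239. The cause of the lower adjusted p-values was not tested. Of all 17155 genes, 649 were called with structural scaling. The median over the 10 members was -0.40 under structural scaling, where the median of all genes was -0.09.

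**Figure D2:**
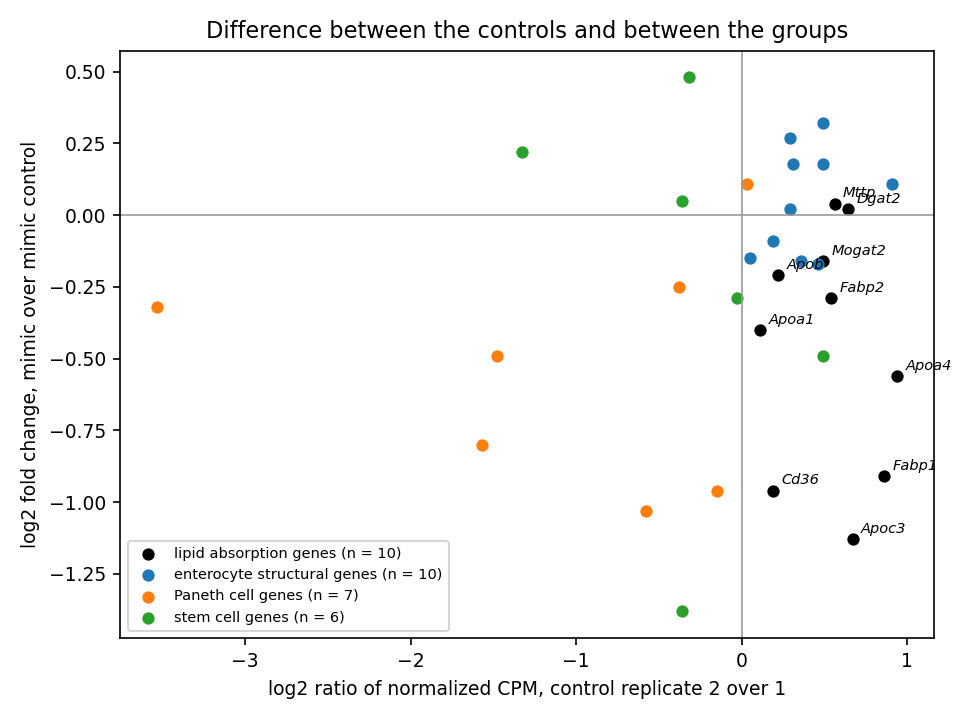
Log2 ratio of control replicate 2 over replicate 1 (horizontal) against the log2 fold change of mimic over mimic control (vertical) for each gene of 4 lists. All 10 lipid absorption genes (black) and all 10 enterocyte structural genes (blue) lie to the right of 0, where the lipid genes extend down to -1.13 and the structural genes lie near 0.

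Each library was also left out in turn. In these fits a lone library is assumed to vary like the pair of the other group, so only log2 fold changes are given. Without control replicate 2 the median of the 10 genes was -0.05, with Apoc3 at -0.76, Apoa4 at -0.01 and Fabp1 at -0.41. Without control replicate 1 the median was -0.50, with Apoa4 at -0.96, Apoc3 at -1.44 and Fabp1 at -1.29. Without mimic replicate 3 Fabp1 was at -1.20, and without mimic replicate 4 Apoa1 was at -0.62 and Apoc3 at -1.42. Apoc3, Apoa1, Apoa4, Apob, Fabp1 and Cd36 stayed below 0 in all 4 fits, whereas Fabp2 and Mogat2 (above 0 without control replicate 2) and Mttp and Dgat2 (below 0 without control replicate 1) did not keep their sign.

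**Figure D3:**
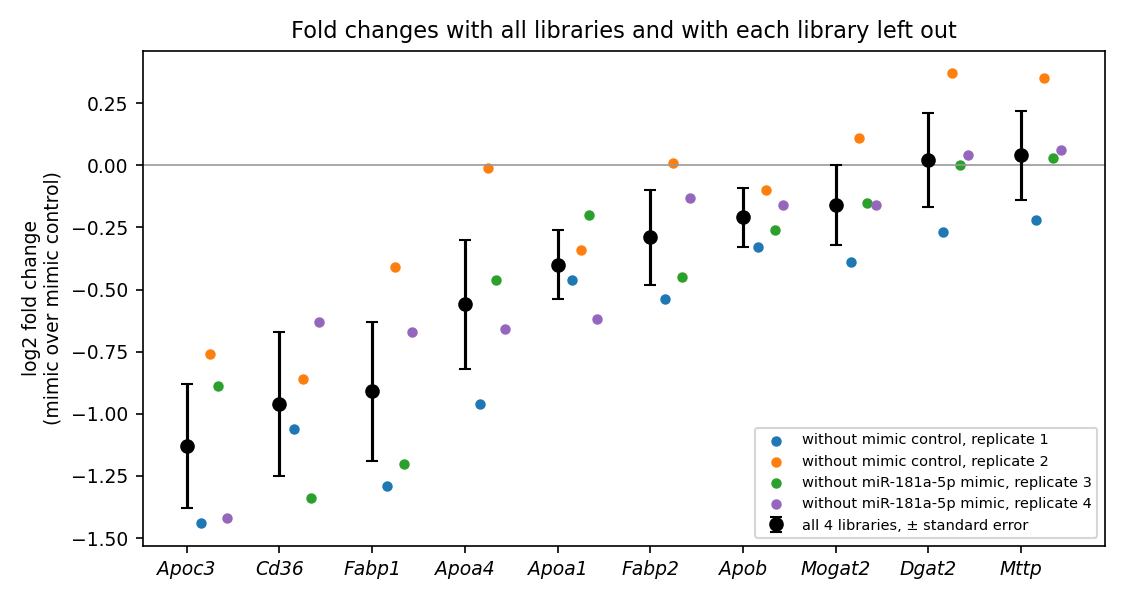
Log2 fold change of each lipid absorption gene, mimic over mimic control, with all 4 libraries (black, bars are ± 1 standard error) and with each library left out (colours). Without mimic control replicate 2 (orange), Apoa4 moves to -0.01 and Fabp2, Mogat2, Dgat2 and Mttp lie above 0, while Apoc3 lies at -0.76.

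Other genes of the pathway were taken from 6 lists of 89 genes, of which 77 passed the filter. Of these 5 were lower with the mimic, 3 were higher and the rest were not called, 10.4% against 3.57% of all genes, with a median log2 fold change of 0.10. The called genes did not share a direction. All 8 had an adjusted p between 0.0259 and 0.0471 in the edgeR quasi-likelihood test. Without the filter on low counts and by limma on TPM, 0 of the 89 listed genes were called. Those fits called few genes at all, 192 of 29212 without the filter and 75, 27 and 2 with limma. They therefore cannot tell whether the 8 calls hold.

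Among 10 tested genes of fatty acid uptake, activation and binding, 2 were lower and 0 higher. Slc27a2, a fatty acid transporter with acyl-CoA synthetase activity, had 150 and 107 CPM in the controls against 72.2 and 66.4 with the mimic and fell by 0.89 on the log2 scale (SE 0.16, adjusted p = 0.033, edgeR). Acsl1, a long-chain acyl-CoA synthetase, had 149 and 137 against 86.1 and 104 CPM (-0.58 ± 0.12, adjusted p = 0.0466, edgeR). In both the groups were apart, and unlike the 10 members neither was higher in control replicate 2. The abundant genes of the list, Dbi for the acyl-CoA binding protein (-0.11 ± 0.14) and Acsl5 (-0.30 ± 0.19), were not called, and like the members they were highest in control replicate 2, at 459 and 836 CPM.

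Of 13 tested genes of glyceride and sterol ester synthesis, only Lpin1 was called. It encodes a phosphatidate phosphatase and rose from 25.5 and 30.3 to 41.5 and 58.1 CPM (0.84 ± 0.17, adjusted p = 0.0471, edgeR). Lpcat3 (0.08 ± 0.14) and Soat1 (-0.27 ± 0.10, adjusted p = 0.153, edgeR), the most abundant genes of this list, were not called. None of 13 genes of chylomicron lipidation, transport and Apob editing was called (2 at an unadjusted p under 0.05, 1 in each direction, against 24.8% of all genes, edgeR quasi-likelihood test). They included P4hb, the partner subunit of the transfer protein (0.01 ± 0.16), and Rbm47, a cofactor of Apob editing (0.14 ± 0.11).

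Among 6 tested genes for other apolipoproteins, Apoc2 was lower and Clu higher. Apoc2, the activator of lipoprotein lipase, had 37.8 and 65.3 CPM in the controls against 22.4 and 22.8 with the mimic (-1.19 ± 0.23, adjusted p = 0.0413, edgeR). Its pattern across libraries was close to that of Apoc3, with control replicate 2 highest and both mimic libraries below both controls. Clu, which encodes clusterin, was low and rose from 1.62 and 1.32 to 4.66 and 3.60 CPM (1.47 ± 0.27, adjusted p = 0.034, edgeR). Apoa2 was at 1.88 and 1.77 against 0.862 and 0.758 CPM (-1.18 ± 0.30, adjusted p = 0.0737, edgeR), and Apoe at 2.97 to 4.15 CPM in all libraries (0.18 ± 0.24). In TPM, Apoa2 was at 2.63 to 5.85 and Apoe at 3.43 to 4.58, above Cd36 and below the other 9 members in every library.

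Of 12 tested genes of lipid droplets and lipolysis, 0 were called and 2 had an unadjusted p under 0.05, both lower, against 13.0% of all genes lower at that p (edgeR quasi-likelihood test). Cideb (-0.16 ± 0.12) and the lipid droplet coat gene Plin2 (-0.22 ± 0.10) were the most abundant. Among 23 tested transcription factors and cofactors of lipid absorption, 2 were lower and 1 was higher. Ppargc1a, a coactivator of oxidative metabolism, fell from 29.6 and 33.5 to 19.3 and 18.0 CPM (-0.76 ± 0.12, adjusted p = 0.0259, edgeR). Prdm1, a transcriptional repressor expressed in the immature intestinal epithelium, fell from 5.56 and 5.78 to 2.68 and 2.95 CPM (-1.01 ± 0.20, adjusted p = 0.046, edgeR). Nr5a2, a nuclear receptor of crypt cells, rose from 35.7 and 35.4 to 53.3 and 48.2 CPM (0.51 ± 0.11, adjusted p = 0.0471, edgeR). Hnf4a, whose motif is marked in the promoters above, had 680 and 734 CPM in the controls against 828 and 840 with the mimic (0.24 ± 0.11, adjusted p = 0.217, edgeR). Mlxipl, a carbohydrate-responsive factor, had 452 and 367 against 363 and 305 CPM (-0.29 ± 0.14, adjusted p = 0.234, edgeR).

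**Figure D4:**
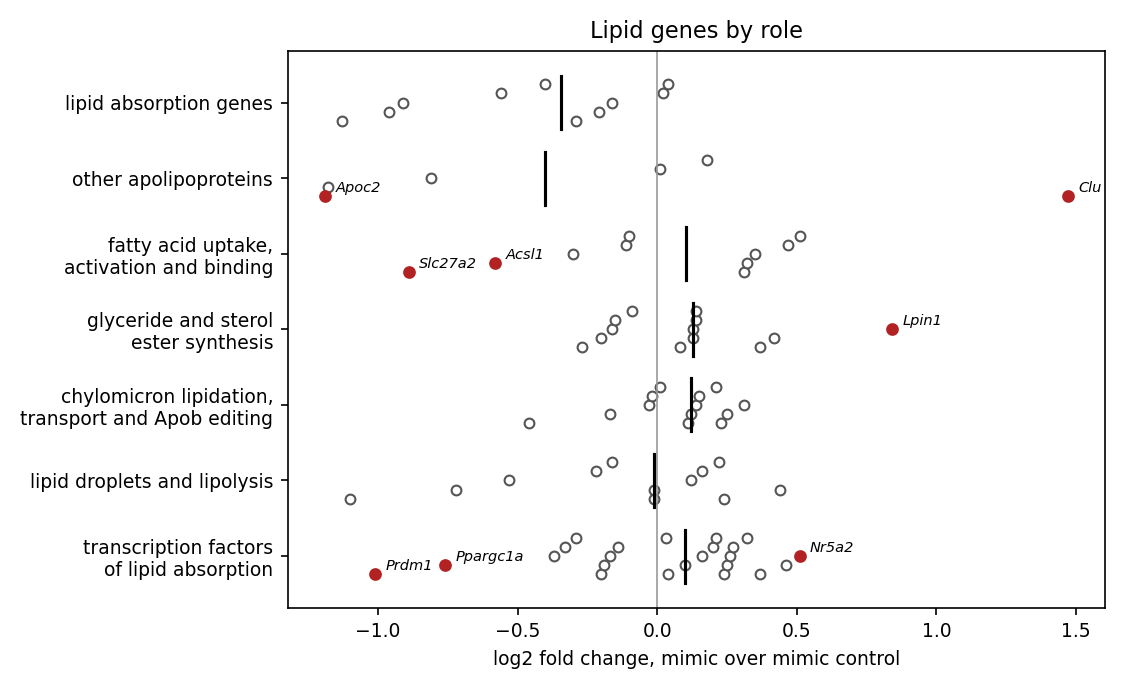
Log2 fold change, mimic over mimic control, of the 10 lipid absorption genes and of the tested genes of 6 further lists, with genes called at an adjusted p under 0.05 filled in red and named and black bars at the medians. No lipid absorption gene is filled, and the 8 filled genes lie on both sides of 0.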

How the data were processed

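Single reads of 100 cycles were trimmed by the authors (Trimmomatic) and quantified with RSEM on GRCm38 transcripts (annotation release not given in the sources used here), and the authors deposited expected counts and TPM per gene. The labels describe poly(A) selection and the supplemental methods ribosomal RNA depletion. Each deposited file held 3 further columns that matched no sample and were not used. Rounded expected counts went into edgeR 4.0.16 under R 4.3.3 (TMM factors, filterByExpr, glmQLFit and glmQLFTest), and p-values were adjusted over the 17155 genes that passed the filter. The standard error is the fold change divided by the root of the F statistic. The steps were tested on simulated counts. DESeq2 1.42.0, limma 3.58.1 on log2(TPM + 1) and log2(TPM + 0.1), other scalings and filters and fits without each library were the alternatives. Gene models came from GENCODE release 21 for mouse, and miRNA and promoter sequences from RefSeq. Of 55487 identifiers 55141 had a symbol.

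The members and the gene lists were chosen with earlier results of these data known. Beside the 10 members, named genes were those called in each list and the 2 uncalled genes with the highest TPM, with Vil1 and Anpep for comparison. Marker genes of other cell types, Fos, Gm10680, Gm43691, Trmt10a and Pafah1b2 were named after their values were seen.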

Additional observations from a re-analysis of the deposited data

How the results depend on the processing

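Of 180 values of the 10 members under 18 alternatives, 158 kept their direction and their side of the threshold, 15 passed the threshold that the reported value had not, and 7 changed sign. The 15 include values from fits without a library, where a lone library is assumed to vary like the other group. Those passes are therefore not counted as calls here. No alternative called a member higher, and 9 called none. Among those 9, the fit without a filter on low counts and the 3 limma fits called only 192, 75, 27 and 2 of all genes. Members called lower numbered 2 with edgeR's likelihood-ratio and exact tests and with scaling to the enterocyte structural genes. With DESeq2 and with upper-quartile factors 1 member was called lower. Of all genes, the likelihood-ratio test called 1864, the exact test 1788 and DESeq2 1288. Structural scaling called 649 and upper-quartile factors 621, against 612 in the main fit. With a fold of at least 2 as well, each of those 5 settings called 1. Fits without a library are given by fold change only. The sign changed with upper-quartile factors for Mttp (-0.01) and Dgat2 (-0.03) and with structural scaling for Dgat2 (-0.02). When a library was left out, Mttp ranged from -0.22 to 0.35 and Dgat2 from -0.27 to 0.37, both lowest without control replicate 1, and Fabp2 from -0.54 to 0.01 and Mogat2 from -0.39 to 0.11, both highest without control replicate 2. The median of the members was -0.50 to -0.05 over the fits that left out a library, the last without control replicate 2.

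For the 6 wider lists, the genes called higher numbered 6 with the likelihood-ratio and exact tests, 7 with DESeq2, 1 with upper-quartile factors, 0 with structural scaling, and 1 to 16 when a library was left out (16 without control replicate 2). Genes of these lists called lower numbered 3 with library totals and 3 with structural scaling, settings that called 585 and 649 of all genes. Without a filter on low counts and in the 3 limma fits on TPM, 0 were called in either direction. The cause of these shifts was not tested.

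No paired analysis was possible because the groups share no replicate numbers. Cd36 rests on 49 to 126 counts per library, and the other members on at least 556.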

Other observations

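Outside the genes named by rule, Cidec, which promotes the fusion of lipid droplets, had a pattern close to that of Apoc3 and Apoc2. It was at 9.73 and 14.0 CPM in the controls and at 4.66 and 6.35 CPM with the mimic (-1.10 ± 0.24, adjusted p = 0.0525, edgeR's quasi-likelihood test), with an adjusted p of 0.00193 in edgeR's exact test and 0.00393 in DESeq2. The exact test and DESeq2 called more of all genes, as given above. Cidec was picked after its values were seen, and it is also a member of the adipocyte list, whose Adipoq and Lep were at 0 in every library.

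The triglyceride supply genes Slc27a4, Acsl3 and Gpam were higher in both mimic libraries than in both controls. None was called by edgeR's quasi-likelihood test, whereas edgeR's exact test (adjusted p = 0.0313, 0.0158 and 0.0124) and DESeq2 (adjusted p = 0.0408, 0.0142 and 0.00986) called all 3. Both of those tests also called more of all genes, 1788 by the exact test and 1288 by DESeq2 against 612 by the quasi-likelihood test. Slc27a4, a fatty acid transporter, was at 41.4 and 55.4 against 71.8 and 65.7 CPM (0.51 ± 0.15, adjusted p = 0.0979, edgeR). Acsl3, an acyl-CoA synthetase, was at 122 and 145 against 193 and 176 CPM (0.47 ± 0.12, adjusted p = 0.0694, edgeR). Gpam, which starts glycerolipid synthesis, was at 109 and 116 against 153 and 148 CPM (0.42 ± 0.09, adjusted p = 0.0552, edgeR). These genes were also picked after their values were seen.

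Next to Mogat2 and Dgat2, 8 other genes within 250 kb were tested, a window chosen after the data were seen. Of these Gdpd5, a glycerophosphodiester phosphodiesterase, rose from 6.39 and 6.36 to 14.0 and 12.6 CPM (1.06 ± 0.16, adjusted p = 0.0178, edgeR), and the other 7 were not called. Near Apoe and Apoc2, 18 other genes were tested within the same distance and 0 were called by the edgeR test, with a median log2 fold change of -0.12. At an unadjusted p under 0.05 in that test there were 6, in both directions, where 24.8% of all genes had such a p.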
